A study of Mus musculus with 2 samples.

Results

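The genes described are 9 genes whose products mark mast cells, basophils and eosinophils: Cpa3, Hdc, Ms4a2, Fcer1a, Mcpt8, Prg2, Epx, Cma1 and Tpsb2. They were chosen by name, not by a measured value, though with earlier results of these data known. They are 9 of 21853 protein-coding genes with an annotated start in GENCODE mouse release M21. For each gene, every accessible region was taken that overlapped the gene body or the 50 kb on either side of it. The assay was ATAC-seq, which marks open chromatin by where a transposase can cut the DNA and attach adapters. The cells were primary haematopoietic stem cells from C57BL/6J mice, adult and 5 to 6 weeks old. There was 1 group of 2 libraries, labelled biological replicates 1 and 2. The labels give both libraries the same donor identifier, state no sex, name no sorting markers, and record 50000 starting cells for replicate 2 alone, so the spread between the libraries may be technical.

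Mast cells, basophils and eosinophils are granule-bearing cells of allergy and of defence against parasites, and all descend from haematopoietic stem cells through myeloid progenitors. Their granules hold proteases, histamine and toxic basic proteins. Mast cells and basophils release them when antigen crosslinks IgE held by a surface receptor made of alpha, beta and gamma chains. The granule proteases are carboxypeptidase A3 (Cpa3), mast cell chymase (Cma1), mast cell tryptase (Tpsb2) and the basophil protease Mcpt8. Histidine decarboxylase (Hdc) makes histamine. Fcer1a and Ms4a2 encode the alpha and beta chains of the IgE receptor. Prg2 encodes eosinophil major basic protein, and Epx encodes eosinophil peroxidase.

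Only peak lists were used, so read depth is unknown. The most stringent list used for both libraries together is the conservative list, thresholded on the irreproducible discovery rate (IDR), which ranks peaks by how well they recur between 2 inputs. After overlapping peaks were merged it held 31532 regions with a median signal of 8.33. The pooled pseudoreplicated list, the most permissive, held 86702 regions with a median signal of 5.14. Signal is the authors' value for a peak, with no stated scaling, and is compared only within a list. A promoter region is a region that overlaps the 1 kb on either side of an annotated start, and a distal region has its summit farther than that from every protein-coding start. A percentile is the share of a list's regions with a signal at or below that of the region named.

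The labelled cell type was checked by counting marker genes with a promoter region. In the conservative list 6 of 10 haematopoietic stem cell markers had one, beside 52.3% of all protein-coding genes, and in the pooled pseudoreplicated list all 10 did, beside 67%. The conservative count is thus near that of genes at large. Of 10 neutrophil and monocyte markers, none had one in the conservative list, 6 had one in the IDR thresholded list of both replicates, beside 57%, and 7 in the pooled list. The replicates differed in these. In replicate 1's IDR thresholded list 5 of the 10 had a promoter region, beside 52.7% of all genes. In replicate 2's none had, beside 46.2%. The pseudoreplicated lists had 7 in replicate 1, beside 64.2%, and 2 in replicate 2, beside 62.5%. Replicate 1's lists were also the larger, with 34588 and 78665 regions beside 22434 and 58113. In the conservative list T cell markers had 1 of 4, B cell markers 2 of 5 and erythroid markers 2 of 6.

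The promoter sequences that carry the main contrast come first. Cpa3 and Hdc were the members with a promoter region in the conservative list. Fcer1a and Ms4a2, the alpha and beta chains of the IgE receptor, had no promoter region in any list. Prg3 is the close relative next to Prg2 whose start lay under the strongest region found near any member. The promoters below run 5′ to 3′ on the coding strand, from 250 bases before to 50 after the start, and are RefSeq's, on GRCm38.p6. Capitals mark matches, on either strand, to a GATA motif (GATAA or GATAG with A or T before it), to the RUNX motif TGTGGT or to the ETS motif, which reads AGGAAG.
Cpa3 promoter, chr3:20242132-20242431, minus strand: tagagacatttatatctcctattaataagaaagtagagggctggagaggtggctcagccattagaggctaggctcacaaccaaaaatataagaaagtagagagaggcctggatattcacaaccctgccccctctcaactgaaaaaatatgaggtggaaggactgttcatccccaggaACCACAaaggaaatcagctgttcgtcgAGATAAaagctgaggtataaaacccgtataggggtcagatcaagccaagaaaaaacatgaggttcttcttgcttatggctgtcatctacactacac
Hdc promoter, chr2:126618629-126618928, minus strand: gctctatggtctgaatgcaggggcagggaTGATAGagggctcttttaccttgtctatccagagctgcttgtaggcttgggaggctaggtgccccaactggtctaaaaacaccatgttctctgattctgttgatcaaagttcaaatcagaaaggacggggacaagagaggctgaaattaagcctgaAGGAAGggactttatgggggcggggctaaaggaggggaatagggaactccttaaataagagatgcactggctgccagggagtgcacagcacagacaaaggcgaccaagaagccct
Fcer1a promoter, chr1:173227180-173227479, minus strand: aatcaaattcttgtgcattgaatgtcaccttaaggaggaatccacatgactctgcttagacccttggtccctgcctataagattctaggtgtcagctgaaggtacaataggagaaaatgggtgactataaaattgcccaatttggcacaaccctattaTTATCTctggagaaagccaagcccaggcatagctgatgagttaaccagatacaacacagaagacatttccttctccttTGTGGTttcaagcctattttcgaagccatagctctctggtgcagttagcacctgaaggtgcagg
Ms4a2 promoter, chr19:11623670-11623969, minus strand: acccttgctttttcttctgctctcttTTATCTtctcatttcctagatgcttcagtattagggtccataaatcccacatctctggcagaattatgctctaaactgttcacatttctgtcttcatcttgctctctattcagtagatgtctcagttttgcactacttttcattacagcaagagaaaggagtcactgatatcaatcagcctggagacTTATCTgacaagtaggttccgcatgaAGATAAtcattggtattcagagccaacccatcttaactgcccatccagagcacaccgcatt
Prg3 promoter, chr2:84987965-84988264, plus strand: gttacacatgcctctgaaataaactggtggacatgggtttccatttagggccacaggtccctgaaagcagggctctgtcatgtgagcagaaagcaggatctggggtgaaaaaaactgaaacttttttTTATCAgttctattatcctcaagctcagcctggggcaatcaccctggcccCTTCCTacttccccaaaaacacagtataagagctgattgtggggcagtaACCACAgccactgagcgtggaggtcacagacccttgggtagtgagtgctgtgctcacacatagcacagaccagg

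The Cpa3 promoter holds a RUNX match 73 bases and a GATA match 46 bases before the start. The Ms4a2 promoter holds 3 GATA matches, and no region of any list covered it. The table of promoters held 7 of the 9 members, Prg2 and Tpsb2 being the other pair. A GATA match was present in 5 of the 7 (Cpa3, Hdc, Ms4a2, Fcer1a and Cma1) and in 29.8% of all 32851 promoters. A RUNX match was present in 4 of the 7 and in 16.8% of all promoters, and an ETS match in 2 of the 7 and in 35.4%. Thus promoters with and without a region held GATA and RUNX matches alike. A match is a run of letters and says nothing of binding.

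Accessible sequence away from the starts is shown for 5 conservative-list regions, as 201 bases centred on the summit, on the strand of the named gene and on GRCm38.p6. The Hdc regions are that window's strongest distal region and 1 with a GATA match, and the Cpa3 region also holds a GATA match. The Prg2 and Cma1 regions are shown because they hold the core of the CTCF motif (CCANNAGNNGGC), a search added after the sequences had been seen. Numbers in the names are the distance in bases from the gene's start to the summit, positive in the direction of transcription. Capitals mark GATA, RUNX, ETS and CTCF matches.
Cpa3 +44143, chr3:20197938-20198138, minus strand: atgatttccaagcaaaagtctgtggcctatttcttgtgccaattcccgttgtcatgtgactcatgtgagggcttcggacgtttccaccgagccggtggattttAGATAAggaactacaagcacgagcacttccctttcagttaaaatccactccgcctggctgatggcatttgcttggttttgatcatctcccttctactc
Hdc +12435, chr2:126606143-126606343, minus strand: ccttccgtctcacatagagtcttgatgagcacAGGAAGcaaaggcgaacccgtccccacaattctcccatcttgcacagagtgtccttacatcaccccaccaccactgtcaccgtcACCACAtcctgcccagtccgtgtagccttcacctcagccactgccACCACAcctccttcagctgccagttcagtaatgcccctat
Hdc -17465, chr2:126636043-126636243, minus strand: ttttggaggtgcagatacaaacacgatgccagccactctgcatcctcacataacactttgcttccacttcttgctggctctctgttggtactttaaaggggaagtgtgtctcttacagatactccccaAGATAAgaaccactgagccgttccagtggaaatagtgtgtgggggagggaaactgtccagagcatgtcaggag
Prg2 -23961, chr2:84956400-84956600, plus strand: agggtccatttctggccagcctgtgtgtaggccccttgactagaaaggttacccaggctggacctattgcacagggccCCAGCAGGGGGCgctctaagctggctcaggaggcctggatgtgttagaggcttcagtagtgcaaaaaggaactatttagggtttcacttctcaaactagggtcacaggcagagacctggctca
Cma1 +25778, chr14:55918783-55918983, minus strand: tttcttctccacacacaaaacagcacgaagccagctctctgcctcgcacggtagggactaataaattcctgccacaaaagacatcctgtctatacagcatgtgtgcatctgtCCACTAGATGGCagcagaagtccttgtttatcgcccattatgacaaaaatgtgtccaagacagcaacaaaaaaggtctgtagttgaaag

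Among the 13 distal conservative-list regions of the 9 windows, 3 (23.1%) held a CTCF match within 100 bases of the summit, against 13.8% of all 20306 distal regions. GATA matches were in 4 of 13 (30.8%), against 23.9%, and in 6 of all 19 regions of the windows, against 19%. RUNX matches were also in 4 of 13, against 30.4%, and ETS matches in 6 of 13 (46.2%), against 50.3%. The E-box of the MITF type (CACGTG or CATGTG), named for the transcription factor that mast cells depend on, was in 6 of 13 (46.2%), against 18.5%. It was in 0 of the windows' 6 promoter regions, against 13%, and in 1 of the 7 member promoter sequences, against 20.4%. Among the other motifs searched, AP-1 (TGACTCA) and C/EBP (TTGCNNAA) were each in 2 of 13 (15.4%), against 8.08% and 9.15%. The other E-box (CAGCTG or CAGATG) was in 4 of 13 (30.8%), against 32.7%, and STAT (TTCNNNGAA) in 0, against 5.33%. In the pooled pseudoreplicated list the MITF-type E-box share was 12 of 48 distal regions (25%), against 18.6%, and the GATA share was 10 of 48 (20.8%), against 26.5%. With so few regions these shares are descriptions of the windows only.

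Promoter accessibility at the 9 genes was limited to Cpa3 and Hdc in the conservative list. These are 2 of 9 members (22.2%), beside 52.3% of all protein-coding genes. Their number was also 2 within 500 bp of the start, beside 51%, and within 2500 bp, beside 55%, and it was 0 for regions above the list's median signal, beside 35.4%. The same 2 genes were the only members with a region overlapping the gene body, where 60.4% of all genes had one. At Cpa3 this was the promoter region itself, and Hdc had 2 regions besides its promoter. A region anywhere in the window was listed for 6 of 9 members, beside 81.6% of all genes, and the 9 windows held 19 regions. The median was 2 regions per member and 3 per gene over all genes.

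**Figure D1:**
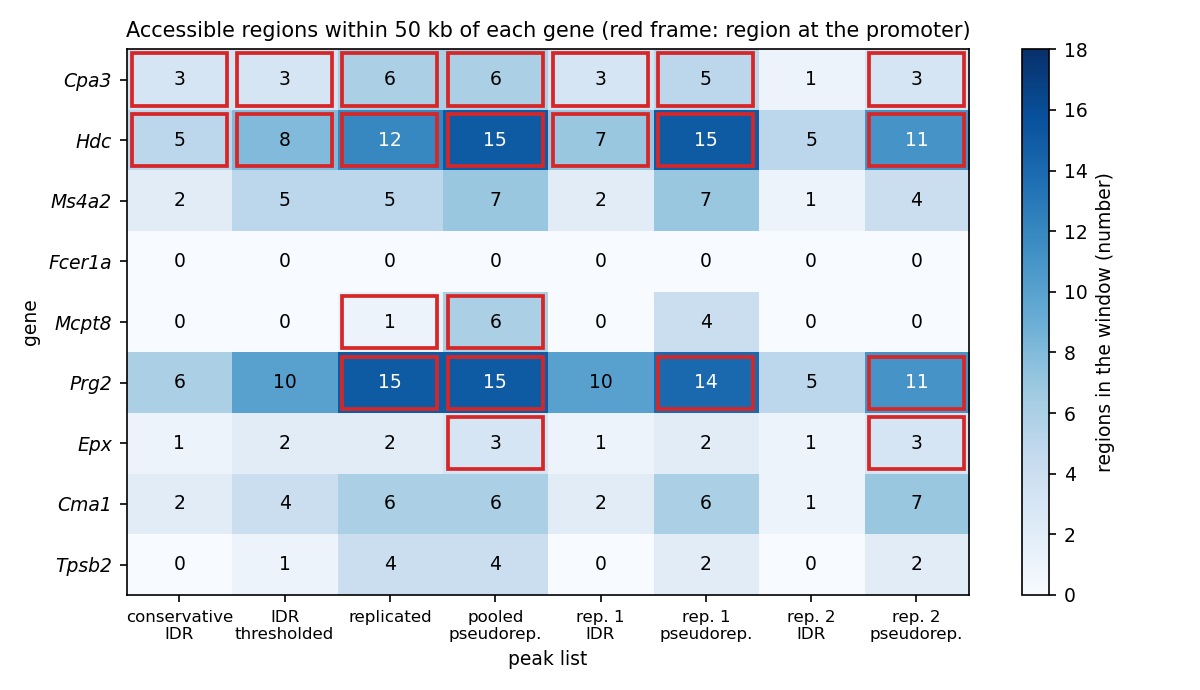
Number of accessible regions within 50 kb of each gene (rows) in each of the 8 peak lists (columns), with a red frame where a region overlaps the promoter. Hdc and Prg2 have the most regions, 15 each in the pooled pseudoreplicated list, and Fcer1a has 0 in every list.

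Cpa3, the carboxypeptidase stored in mast cell granules, had a single region at its start, chr3:20242071-20242388 on mm10. Its signal was 7.79 in the conservative list, the 41.6th percentile of that list, and the summit lay 73 bp before the start. Replicate 1 had the region at 7.69, in both its IDR thresholded and its pseudoreplicated list. Replicate 2 had it at 5.71, in the pseudoreplicated list only. Both libraries therefore listed an open Cpa3 promoter, and replicate 2 did so below the IDR threshold.

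The conservative list held 3 regions in the Cpa3 window. The intergenic region at +44143, chr3:20197879-20198503, past the 3′ end of the gene, had a signal of 6.33, with 6.07 in replicate 1 and 5.86 in replicate 2, in both IDR thresholded lists. The nearest start to it was that of Gyg, at 42721 bp. Inside the Cpa3 gene body the pooled pseudoreplicated list added 1 region, at +12888 with a signal of 4.65, which neither replicate's own list held.

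Hdc, the enzyme that makes histamine, had the widest set of regions at its own sequence. The promoter region, chr2:126618526-126619090, had a summit 9 bp before the start and a conservative-list signal of 7.81, the 41.9th percentile. Replicate 1 listed it at 10.1 in both its lists and replicate 2 at 5.39 in its pseudoreplicated list only. As at Cpa3, replicate 1 placed the promoter above its IDR threshold and replicate 2 did not.

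The Hdc gene body held 2 further conservative-list regions, and these recurred in both replicates' IDR thresholded lists. The intronic region at +12435, chr2:126606070-126606678, had a signal of 8.45, with 8.59 in replicate 1 and 6.49 in replicate 2. The region at +24709, chr2:126593840-126594115, lay on a coding exon near the end of the gene and had 7.95, with 7.90 and 6.30. These intragenic regions were thus listed more stringently in replicate 2 than the Hdc promoter. Upstream, a pair of neighbouring regions in an intron of Gabpb1, at -17465 and -17965, had signals of 7.29 and 7.09 and were in both replicates' IDR thresholded lists. Both summits lay nearer to the Hdc start than to any other protein-coding start. The pooled pseudoreplicated list raised the count to 15 regions in the Hdc window, with 5 in the gene body besides the promoter.

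The remaining granule proteases had no promoter region in the conservative list. Mcpt8, the basophil protease, had no region at all in its window there, and its nearest summit was 166 kb away. Its promoter appeared in the replicated list and in the pooled pseudoreplicated list at 3.52, the 20th percentile of the latter, and in neither replicate's own list. Replicate 1's pseudoreplicated list held 4 regions in the Mcpt8 window, all on the side of the neighbouring protease gene Ctsg, and replicate 2's held none.

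Cma1, the mast cell chymase, had 2 conservative-list regions in its window and none at its start. The nearer, at +25778 (chr14:55918542-55919124), was intergenic with a signal of 7.85, with 9.21 in replicate 1 and 5.24 in replicate 2's pseudoreplicated list. The other was the promoter of Sdr39u1, with 10.2. In the pooled list 5 of the 6 regions were intergenic and all lay on the 3′ side of the gene. The replicated list also held a region on the 5′ side, with its summit 1822 bp before the start and a signal of 3.85. Tpsb2, a mast cell tryptase, had no region in the conservative list, and its nearest summit was 81.1 kb away. Its strongest region in the next list, the IDR thresholded list of both replicates, was at +34102 in the gene Cacna1h with a signal of 5.08. Matches of at least 80% identity to other places in the genome covered 26.9% of the 2 kb around the Cma1 start and 10.6% of that around the Tpsb2 start, the latter at the related tryptase gene Tpsab1. How reads from such copies were assigned is not given in the sources used here. At Fcer1a such a match, to a stretch by the gene Crp, covered 14.3%, and the search found none for the other 6 members. The matches were 83.9%, 81.7% and 85.7% identical at Cma1, Tpsb2 and Fcer1a. Whether such copies had a part in the missing promoter regions of these 3 genes was not tested.

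The alpha and beta chains of the IgE receptor had no promoter region in any of the 8 lists. Together with Cma1 and Tpsb2 they made 4 of 9 members without one, beside 31.8% of all genes. Fcer1a, the alpha chain that binds IgE, also had no region within 50 kb in any list, which held for 11% of all genes and for no other member. Its nearest summit was 123 kb away in the conservative list and 86.6 kb away in the pooled pseudoreplicated list. Ranked lists hold peaks below the IDR threshold too. Those of each replicate and the one searched for both replicates held no peak in its window either. A further ranked list of both replicates was not searched. Ms4a2, the beta chain, had 2 conservative-list regions in its window. One, in an intron of Ms4a6d at +21432 (chr19:11602007-11602405), had a signal of 8.17, with 8.22 and 6.19 in the replicates' IDR thresholded lists. The other, intergenic at +10326 (chr19:11612965-11613479), had 4.92, with 6.22 and 4.58 in the pseudoreplicated lists, and was in neither replicate's IDR thresholded list. Its 201 central bases held 1 match each to the GATA, RUNX and ETS motifs.

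On the other side of Ms4a2 lies Ms4a3, a family member known from granulocyte and monocyte progenitors. Its promoter region had a signal of 12.6 in replicate 1, the 93.2nd percentile of that library's pseudoreplicated list. Replicate 2 listed no region there. No other region of the 9 windows listed in only 1 replicate had so high a signal in the pseudoreplicated lists, and the difference goes the same way as the neutrophil and monocyte markers given above. Whether granulocyte-lineage cells in replicate 1 had a part in it was not tested.

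The eosinophil genes showed accessible neighbours rather than accessible starts in the conservative list. Prg2, for major basic protein, had 6 regions in its window, more than 74.6% of all genes had, and none at its own start. The strongest was the promoter of Prg3, chr2:84987958-84988483, 7719 bp past the Prg2 start. Prg3 encodes a second form of major basic protein. Its signal was 13.7 in the conservative list, with 16.1 in replicate 1 and 9.28 in replicate 2, at the 97.7th and 80.3rd percentiles of their IDR thresholded lists. The intergenic region at -50089 (chr2:84930120-84930900) followed with 10.2, with 11.2 and 7.69 in the replicates. The nearest start to that region was that of Slc43a3, at 6207 bp. The Prg2 promoter itself was listed at 4.17 in the pooled pseudoreplicated list, with 4.49 in replicate 1 and 3.57 in replicate 2. The neighbouring starts of Prg2 and Prg3, genes for related proteins, thus sat at the 33.6th percentile and at the top of the window respectively.

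Epx, for eosinophil peroxidase, had 1 conservative-list region in its window, at the promoter of Mks1, with a signal of 12.9. At Epx itself a region with its summit 528 bp past the start appeared in the pooled pseudoreplicated list at 3.85 and in replicate 2 at 3.60, and replicate 1 listed none. The other region of the pooled list lay in Lpo, a related peroxidase gene, with a signal of 6.56.

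**Figure D2:**
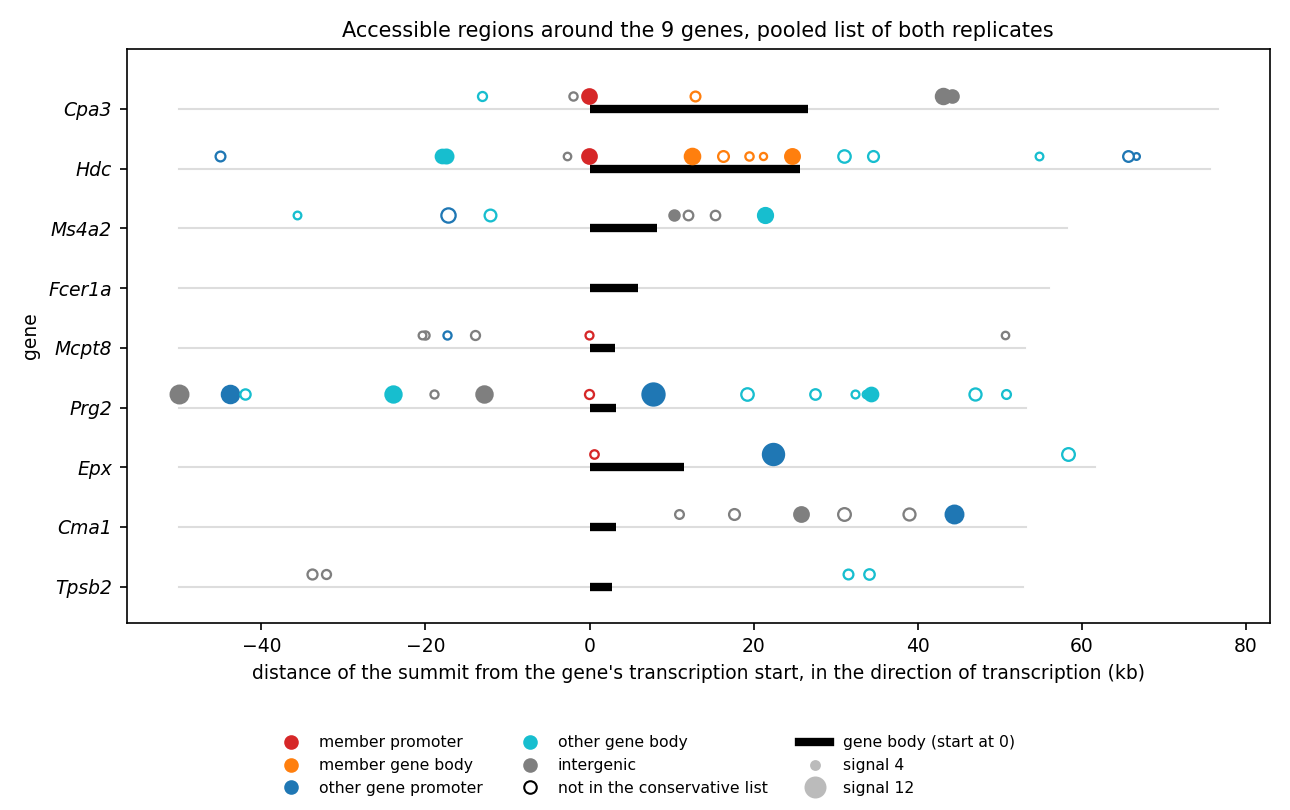
Position of each pooled-list region, as the distance of its summit from the gene's start in kb along the direction of transcription, with point size for the authors' signal, colour for what lies at the summit, and filled points for regions that the conservative list also held. Filled red points at Cpa3 and Hdc are the member promoters of the conservative list, and the largest points belong to the promoters of Prg3 and Mks1.

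By class, the 19 conservative-list regions of the windows comprised 2 member promoters, 2 regions in a member gene body, 4 promoters of other genes (Slc43a3, Prg3, Mks1 and Sdr39u1), 5 regions in other gene bodies and 6 intergenic regions. Other genes' promoters ranged in signal from 9.90 to 13.7, all above both member promoters. The 13 distal regions had a median signal of 7.95, beside 7.96 over all distal regions of the list. These medians differed little.

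More permissive lists added member promoters. The IDR thresholded list of both replicates had the same 2 of 9, beside 57% of all genes. The replicated list had 4 of 9, beside 65.8%, and added Mcpt8 and Prg2. The pooled pseudoreplicated list had 5 of 9 (55.6%), beside 67%, and added Epx. Between the 7.79 of Cpa3 and the 4.17 of Prg2 in that list no member promoter lay. In that list 8 of 9 members had a region in their window, beside 88.2%, all but Fcer1a. Gene body counts include promoter regions that reach into the gene, so they rose with the promoters. They were 2 of 9 in the IDR thresholded list of both replicates, beside 65.1%, and 4 in the replicated list, beside 72.8%. The pooled pseudoreplicated list had 5, beside 74%, and there only Cpa3 and Hdc had a gene body region besides the promoter. In the ranked list searched for both replicates the threshold is an IDR score of 540. There the Hdc promoter scored 744, Cpa3 684, Prg2 328 and Mcpt8 147. The other 5 members had no promoter peak in that list. Cpa3 and Hdc were thus inside the threshold and below the top on a scale that ends at 1000.

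The replicates alone differed at the stringent threshold. Replicate 1's IDR thresholded list had 2 of 9 promoters (Cpa3 and Hdc), beside 52.7% of all genes, and its pseudoreplicated list 3 of 9, beside 64.2%, with Prg2 added. Replicate 2's IDR thresholded list had 0 of 9, beside 46.2%, and its pseudoreplicated list 4 of 9, beside 62.5%, for Cpa3, Hdc, Prg2 and Epx. Regions overlapping the gene body, promoter regions included, were listed for 2 and 3 members in replicate 1's lists, beside 61% and 72%. In replicate 2's lists they were listed for 1 and 4, beside 53.3% and 70%. The 1 gene with a gene body region in replicate 2's IDR thresholded list was Hdc. In replicate 2's ranked list the Hdc promoter scored 507 and Cpa3 256, under the threshold of 540. Hdc scored above Cpa3 in the ranked list of each replicate and of both, although in replicate 2 the signal of Cpa3 (5.71) was above that of Hdc (5.39).

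**Figure D3:**
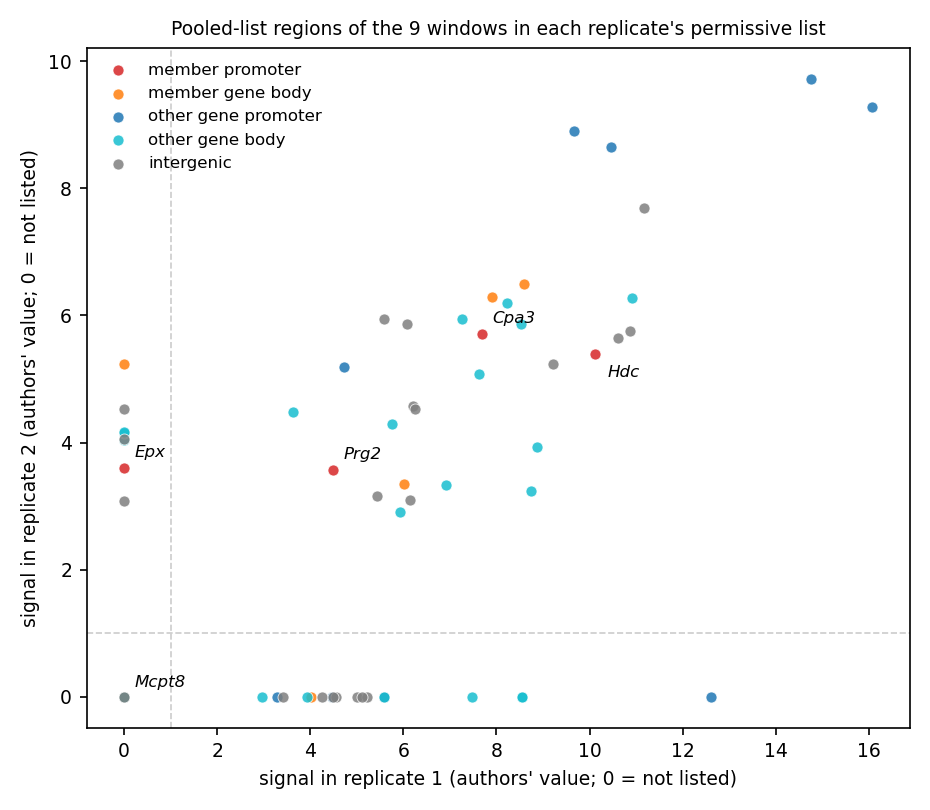
Signal of the 62 pooled-list regions of the windows in replicate 1 (horizontal) and replicate 2 (vertical) pseudoreplicated lists, with 0 where a replicate did not list the region and dashed lines setting those points apart. Member promoters are named: Cpa3, Hdc and Prg2 were listed in both replicates, Epx in replicate 2 and Mcpt8 in neither.

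Sharing between replicates in these windows was close to that over the genome. Of the 19 conservative-list regions, 18 (94.7%) overlapped replicate 1's IDR thresholded list and 13 (68.4%, 95% Wilson interval 46 to 84.6) replicate 2's. Over all conservative-list regions the shares were 84.6% and 65.3%. All 19 were in both pseudoreplicated lists, as were 98.1% of all regions. Of the 62 pooled-list regions, 32 (51.6%) were in both replicates' pseudoreplicated lists, 18 (29%) in replicate 1's only, 8 (12.9%) in replicate 2's only and 4 (6.45%) in neither. The shares over all 86702 pooled-list regions were 55.1%, 27.3%, 7.74% and 9.83%. The intervals cover counting error only.

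The promoters of the 9 genes share a base composition that the choice of genes did not use. Over the 500 bp on either side of the start, the ratio of observed to expected CpG dinucleotides ranged from 0.05 at Ms4a2 to 0.22 at Cpa3, with a median of 0.14, beside 0.56 over all genes. GC content had a median of 46.6%, beside 54.9%. Promoter regions were listed for 16.8% of the 8625 genes with a CpG ratio under 0.4 and for 75.5% of the other 13228 genes in the conservative list. In the pooled pseudoreplicated list the shares were 29.3% and 91.5%. All 9 members are such genes of low CpG ratio, and their shares in these lists were 22.2% and 55.6%. The part of base composition in the members' counts was not tested.

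Related genes were counted by role, in lists drawn up from general knowledge but with earlier results of these data known. Regulators of the 3 lineages had a promoter region in 9 of 14 cases (64.3%) in the conservative list, beside 52.3% of all genes. The strongest were Mitf (13.3), Stat5a (11.4), Xbp1 (11.4) and Id2 (9.36), each counted at any annotated start of the gene. Mitf is a transcription factor that mast cells depend on. Stat5a acts below cytokine receptors, and Xbp1 is needed for eosinophil secretory maturation. Gata1, the factor of erythroid, mast and eosinophil cells, had none in any list, and Gata2 had none in the conservative list but was in 4 lists.

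Genes of IgE receptor signalling, which other blood cells also use, had a promoter region in 9 of 10 cases (90%), beside the same 52.3%. Fyn (12.2), a tyrosine kinase, and the adaptor Lat (11.9) led, followed by the kinase Syk and the adaptor Lat2. Of the receptor's own alpha and beta chains 0 of 2 had a promoter region, beside 52.3% of all genes. Both have a CpG ratio under 0.4, and of all such genes 16.8% had one. The gamma chain Fcer1g, shared with other immune receptors, had none in the conservative list and was in 6 of 8 lists.

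The list of receptors of the lineages also counts Tespa1, a signalling protein and not a receptor. It had a promoter region in 4 of 16 cases (25%, beside 52.3%). These were Tespa1 (12.1), Kit (8.39), the stem cell factor receptor that stem cells use too, Csf2rb2 (6.57) and Il3ra (6.02), the IL-3 receptor alpha chain. Csf2rb2 has a close copy, Csf2rb, so its value is uncertain. Of the 16, 5 had none in any list, a share close to the 31.8% of all genes. Among them were the eotaxin receptor Ccr3, Cd200r3, Mrgprb1 and Mrgprb2. Granule proteins and mediator enzymes had 5 of 20 (25%, beside 52.3%). Besides Prg3 these included Ptgs1 (9.42) and Hpgds (8.08), both in prostaglandin synthesis, and Ndst2 (8.74), which modifies the heparin of mast cell granules. Of the 20, 10 had none in any list, beside 31.8% of all genes. Among them were the eosinophil ribonucleases Ear1, Ear2 and Ear6 and the protease Mcpt1, all of families with close copies. Cytokines had 2 of 6 (33.3%, beside 52.3%), Il6 (10.4) and Il4 (6.62), and Il3, Il5 and Il13 had none in any list.

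**Figure D4:**
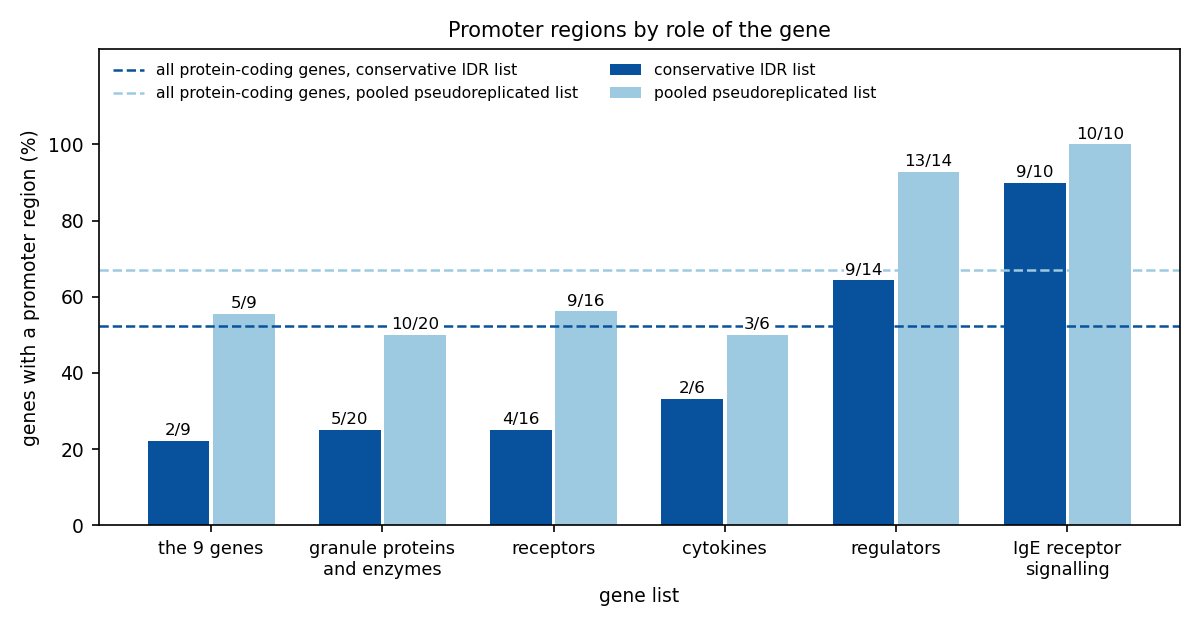
Share of genes with a promoter region (per cent) by role, in the conservative list (dark bars) and the pooled pseudoreplicated list (light bars), with counts above the bars and dashed lines at 52.3% and 67% for all protein-coding genes. In the conservative list the 9 genes (2 of 9) and receptors, Tespa1 included (4 of 16), lie below the dark line. So do granule proteins and enzymes (5 of 20). Regulators (9 of 14) and IgE receptor signalling (9 of 10) lie above that line.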

How the data were processed

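ATAC-seq peak lists of 2 libraries of mouse haematopoietic stem cells on mm10 were used, per the labels. The aligner, peak caller and handling of the transposase offset are each not given in the sources used here. Per the deposited notes, each replicate has IDR ranked, IDR thresholded and pseudoreplicated lists of its own, and further lists cover both libraries. Each peak's signal (column 7) and each ranked peak's IDR score were deposited by the authors, and the signal has no stated scaling. Within a list, peaks that overlapped were joined into 1 region, which kept the summit and signal of its strongest peak. Regions were joined to GENCODE M21 genes on GRCm38.p6, on which no region ran past a chromosome's end. The windows were gene bodies with 50 kb each side. The members and lists were chosen with earlier results of these data known, so counts are given beside those over all 21853 genes with no test. All 9 members are named. Regions named are the conservative list's at a member's promoter or gene body, each window's strongest distal region in that list and, where a window has no region there, the strongest in the most stringent list with one, except 1 region that is not reported here, and any further region or gene was chosen with its values in view. Related genes named are, per role, the 4 strongest in the conservative list and the alphabetically first 4 (or fewer) without one in any list. Motifs were searched on both strands within 100 bp of summits. Copies of the sequence within 1 kb of each start were sought with blastn 2.17.0 (megablast with repeats masked, identity of 80% or more, e-value 1e-10). Less similar copies could be missed by this search. Calculations used Python 3.11.15, pandas 2.3.3, numpy 2.4.6 and scipy 1.17.1, figures used matplotlib 3.10.9, and merging and counting were tested on simulated peaks. Alternatives were the other lists, each replicate alone, stronger regions only, other promoter, flank, overlap and motif windows.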

Additional observations from a re-analysis of the deposited data

How the results depend on the processing

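The number of members with a promoter region was 2 in the conservative list and stayed 2 in both replicates' joint IDR thresholded list, with promoter windows of 500 or 2500 bp each side, and with the 5′-most start only. It was 4 in the replicated list, 5 in the pooled pseudoreplicated list and 0 among regions above the median signal. With 1 replicate left out it ranged from 0 (without replicate 1, IDR thresholded) to 4 (without replicate 1, pseudoreplicated). Members with a region overlapping the gene body, promoter regions included, numbered 2 in the conservative list. They numbered 4 and 5 in the replicated and pooled lists, beside 72.8% and 74% of all genes. Above the median signal they numbered 1, a setting with no share over all genes given. With a replicate left out they numbered 1 to 4. Regions in the windows numbered 19, and 33, 51 and 62 in the IDR thresholded, replicated and pooled lists, 9 above the median signal, and 6 and 47 with flanks of 10 and 100 kb, with 14 to 55 when a replicate was left out. Distal regions numbered 13, and 25, 41, 48, 5, 3 and 33 in the same order, with 10 to 41 when a replicate was left out. For window regions at other flanks or above the median signal, no value over all genes is given. The share of window regions in both replicates was 68.4%, 57.9% where 50% of the region had to overlap, and 100% with pseudoreplicated lists. Regions with a GATA match numbered 6 of 19, beside 19% of all regions. With summit windows of 50 and 150 bp each side they numbered 5 and 8, beside 9.29% and 28.4%. No paired analysis was possible because the series has 1 group and no test between groups. Read depth is unknown, so a gene listed with no region may lie below what these libraries could call, and with 2 libraries no spread beyond their difference was measured.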
